A study of Mus musculus with 18 samples.

Results

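Circular RNAs (circRNAs) hosted by 3 genes of macrophages and other immune cells, Adgre1, Mertk and Ikzf1, were followed in mouse liver. All circRNAs with both ends inside these genes were taken: 2 from Adgre1, 1 from Mertk and 1 from Ikzf1, 4 of the 474 circRNAs in the deposited table. Liver RNA came from 18 male C57BL/6 mice that were 6 weeks old when bought, with 6 mice in each of 3 groups, out of 15 treated per group, and treatment over 12 weeks. How the 6 were picked is not stated. Cirrhosis-PTH mice received intraperitoneal 10% carbon tetrachloride (CCl4) in corn oil, at 10 µl per g of body weight 2 times a week, and, by mouth, the traditional Chinese medicine PTH (Pien Tze Huang) at 0.25 mg per g a day. Cirrhosis mice received CCl4 in the same way and oral double distilled water. Control mice received injections of corn oil alone in that volume, and the water. The labels name whole liver, so cells of every type contributed RNA in all groups, and neither liver histology nor cell counts were used here.

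Adgre1 encodes F4/80, an adhesion G protein-coupled receptor with a chain of epidermal growth factor (EGF)-like repeats outside the cell, and is the classical surface marker of mouse macrophages, including the resident Kupffer cells of the liver. Mertk encodes a receptor tyrosine kinase through which macrophages bind the bridging proteins Gas6 and protein S on dying cells and engulf them. Ikzf1 encodes Ikaros, a zinc finger transcription factor of blood cell development that is made in lymphocytes and most other leukocytes. CCl4 is turned into a radical by hepatocyte cytochrome P450, and the injury draws monocytes into the liver. A circRNA is an exon or run of exons closed into a ring by back-splicing, which joins the ring's own last base to its first. Reads across that join, the back-splice junction, were what was counted.

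The label of an immune group could not be checked with markers other than the members' own host genes, which are themselves in the marker lists. Of 30 macrophage and Kupffer cell marker genes, 2 hosted a listed circRNA (Adgre1 and Mertk, with 3 circRNAs), and of 30 lymphocyte and pan-leukocyte markers 1 did (Ikzf1). Markers of neutrophils and dendritic cells, liver endothelium, cholangiocytes and erythroid cells hosted 0. The cell type behind each read was not tested.

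The sequences of the 4 circles are shown because the back-splice junction, the join of the last to the first base, is what separates each of them from the linear transcript of its host. They are the annotated exons of GENCODE M21 transcripts on GRCm38, all on the plus strand, printed 5' to 3' from the first base of the first exon. The 15 bases in capitals at each end meet at the junction.
Adgre1 exons 6 to 7: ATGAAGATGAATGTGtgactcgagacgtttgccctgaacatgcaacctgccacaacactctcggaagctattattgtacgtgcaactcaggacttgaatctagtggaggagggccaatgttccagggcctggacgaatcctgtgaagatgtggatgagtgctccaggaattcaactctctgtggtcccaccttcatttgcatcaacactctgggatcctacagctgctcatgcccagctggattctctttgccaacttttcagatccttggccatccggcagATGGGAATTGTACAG
Adgre1 exons 11 to 12: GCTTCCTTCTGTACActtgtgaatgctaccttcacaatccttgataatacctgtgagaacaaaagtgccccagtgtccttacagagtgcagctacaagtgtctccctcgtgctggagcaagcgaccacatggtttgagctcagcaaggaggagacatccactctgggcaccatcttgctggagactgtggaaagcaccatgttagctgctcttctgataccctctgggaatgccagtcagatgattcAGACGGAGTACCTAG
Mertk exons 3 to 4: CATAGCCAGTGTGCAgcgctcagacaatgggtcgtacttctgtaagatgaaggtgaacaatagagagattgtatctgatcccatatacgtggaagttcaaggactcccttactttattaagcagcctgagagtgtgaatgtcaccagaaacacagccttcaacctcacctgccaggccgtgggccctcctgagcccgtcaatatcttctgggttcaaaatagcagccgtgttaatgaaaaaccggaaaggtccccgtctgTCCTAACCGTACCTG
Ikzf1 exons 2 to 3: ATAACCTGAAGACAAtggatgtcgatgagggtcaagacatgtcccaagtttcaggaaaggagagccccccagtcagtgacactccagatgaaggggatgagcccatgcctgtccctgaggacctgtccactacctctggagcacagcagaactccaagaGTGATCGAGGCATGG
Each circle joined 2 neighbouring exons, against a median of 3 exons over the 435 listed circRNAs whose ends both lay at exon ends of 1 transcript. No stretch of 25 bases from any of the 4 circles occurred in an annotated transcript of another gene.

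The Adgre1 circRNA of exons 6 to 7 lay at chr17:57406834-57408495 and held 297 coding bases. Its exons of 147 and 150 bases carried 6 cysteine codons each in the reading frame of the host, and paired cysteines are what holds an EGF-like repeat together. The Adgre1 circRNA of exons 11 to 12 lay at chr17:57419322-57420524 and held 262 coding bases, with 2 cysteine codons in exon 11 and 0 in exon 12. The intron after exon 12 measured 20730 bases, longer than 74.0% of the downstream introns of the 434 placed circRNAs that had one, while the intron after exon 7 measured 2222 bases, longer than 16.6% of them. The Mertk circRNA lay at chr2:128736563-128738369 and held 275 coding bases of exons 3 to 4, in the immunoglobulin-like part of the receptor. The Ikzf1 circRNA lay at chr11:11700205-11707904 and held 174 bases, 14 from the 5' UTR and 160 coding. The host's start codon began at base 15 of that circle, ahead of the exons that encode the zinc fingers. The Ikzf1 circle was shorter than most, with 4.4% of the 435 placed circRNAs below it. Its downstream intron of 40406 bases was longer than 88.2% of the others.

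**Figure D1:**
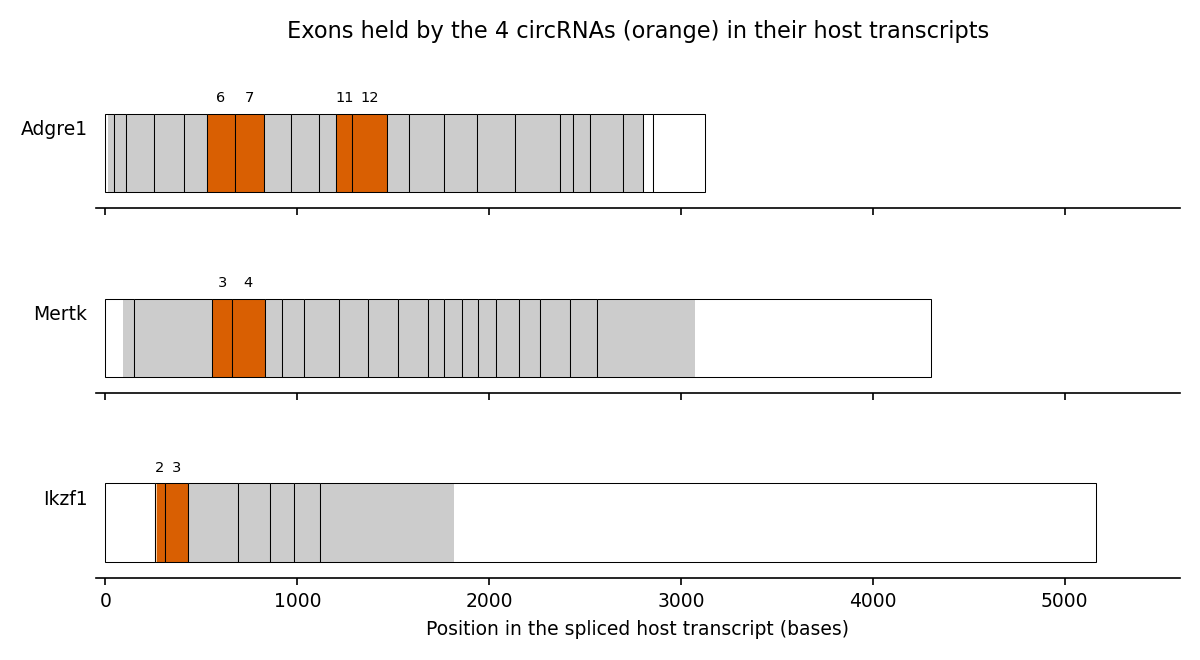
Host transcripts of the 4 circRNAs drawn to scale along the spliced transcript in bases. Orange boxes are the circularised exons with their exon numbers, grey is other coding sequence, and white is untranslated sequence. The circles lie in the first part of each transcript, and the Ikzf1 circle starts 14 bases before the coding sequence.

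Values are CPM as deposited, junction read counts scaled by a total per library whose kind is not stated. Whole reads and these totals were recovered from them. The totals behind the CPM were 4235976 to 29164342 reads per library in Cirrhosis-PTH, 4137926 to 9431536 in Cirrhosis and 2706152 to 11773984 in Control. A floor of 3 reads in a library corresponded to 0.103 to 1.11 CPM. Cirrhosis 6 had the fewest circRNAs detected of all 18, 223 against 283 to 376 in the other Cirrhosis libraries and 248 in Control 1. It was also the lowest Cirrhosis library for all 4 circRNAs, so leaving it out enlarges every Cirrhosis difference. Results are therefore also given without it, without Cirrhosis 5, the highest, and without Cirrhosis-PTH 4, the lowest of its group in sum. Over the whole study 261 back-splice reads of the 4 circRNAs were recovered, 0.673% of the 38784 reads of all listed circRNAs. Each circRNA is counted at 1 junction, so its level does not scale with its length. By mean CPM over the 18 libraries, exons 11 to 12 of Adgre1 (0.722) stood in place 99 of 474, Ikzf1 (0.596) in 129, Mertk (0.451) in 190 and exons 6 to 7 of Adgre1 (0.294) in 318, where the median of all was 0.375 CPM. Intervals of pooled rates are exact Poisson intervals at 95% and cover counting error only, since reads carried no molecular identifiers.

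The Adgre1 circRNA of the EGF-like exons 6 to 7 was seen mainly in the Cirrhosis livers. It stood at a lowest value of 0, a median of 0.0172 and a highest of 0.175 CPM in Cirrhosis-PTH, at 0, 0.751 and 1.28 CPM in Cirrhosis, and at 0, 0 and 0.306 CPM in Control. In 5 of 6 Cirrhosis libraries it lay between 0.518 and 1.28 CPM, above every library of the other groups, and it was at 0 in Cirrhosis 6, so the groups overlapped. Means were 0.0614 ± 0.0831 CPM in Cirrhosis-PTH, 0.727 ± 0.465 in Cirrhosis and 0.0934 ± 0.146 in Control (SD, n = 6 each). The Cirrhosis-PTH mean was 0.0386 without Cirrhosis-PTH 1 and the Control mean 0.0510 without Control 7, in each case a move of over 1.5 times. Reads numbered 4, 29 and 6 in the same order, which pooled over a group gave 0.0549 CPM (0.0150 to 0.140), 0.731 CPM (0.490 to 1.05) and 0.152 CPM (0.0558 to 0.331).

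The Adgre1 circRNA of exons 11 to 12 was the member with the most reads, and it was detected in all 6 Cirrhosis livers. It stood at 0, 0.648 and 0.944 CPM in Cirrhosis-PTH (lowest, median and highest), at 0.184, 1.01 and 3.84 CPM in Cirrhosis and at 0, 0 and 0.575 CPM in Control. Cirrhosis 4 and Cirrhosis 5 were the highest, at 2.42 and 3.84 CPM, while 4 of 6 Control libraries had none. Means were 0.511 ± 0.406 CPM in Cirrhosis-PTH, 1.50 ± 1.38 in Cirrhosis and 0.157 ± 0.253 in Control (SD, n = 6 each), and the Control mean was 0.0739 without Control 6. The groups overlapped: Cirrhosis 6 (0.184 CPM, a single read) and Cirrhosis 3 (0.518 CPM, 4 reads) both lay below Control 6 and below 4 Cirrhosis-PTH libraries. The 24, 53 and 4 reads of the groups pooled to 0.329 CPM (0.211 to 0.490), 1.34 CPM (1.0 to 1.75) and 0.101 CPM (0.0276 to 0.259) in the same order.

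The Adgre1 circles were not always found in the same libraries. Both were detected together in 3 Cirrhosis-PTH libraries, 5 Cirrhosis libraries and 0 Control libraries. In Control, 2 libraries had the circle of exons 6 to 7 alone, 2 had that of exons 11 to 12 alone and 2 had neither. Of all Adgre1 back-splice reads, the circle of exons 11 to 12 made up 85.7% (24 of 28; exact Clopper-Pearson 95% interval 67.3 to 96.0) in Cirrhosis-PTH, 64.6% (53 of 82; 53.3 to 74.9) in Cirrhosis and 40.0% (4 of 10; 12.2 to 73.8) in Control. These intervals pool the reads of a group as if independent and cover counting error only, while Cirrhosis-PTH 5 gave 12 of the 28 reads and Cirrhosis 5 gave 28 of the 82. They overlap, and the difference in proportion was not tested. Cirrhosis-PTH 6, the library with the largest recovered total behind its CPM, held 1 read of each Adgre1 circle.

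The Mertk circRNA, from the receptor for dying cells, was spread over all groups. It stood at 0, 0.207 and 0.385 CPM in Cirrhosis-PTH, at 0, 1.04 and 1.64 CPM in Cirrhosis and at 0, 0.223 and 0.714 CPM in Control (lowest, median and highest). In Cirrhosis, 4 of 6 libraries (Cirrhosis 2 to 5) lay between 0.906 and 1.64 CPM, above all libraries of the other groups, and Cirrhosis 1 and Cirrhosis 6 lay at 0.134 and 0 CPM. Means were 0.215 ± 0.140 CPM in Cirrhosis-PTH, 0.843 ± 0.648 in Cirrhosis and 0.294 ± 0.303 in Control (SD, n = 6 each). The pooled rates from 19, 33 and 15 reads were 0.261 CPM (0.157 to 0.407), 0.832 CPM (0.573 to 1.17) and 0.380 CPM (0.213 to 0.627).

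The Ikzf1 circRNA, from the leukocyte transcription factor, was the only member detected in every Control library. It stood at 0, 0.422 and 0.708 CPM in Cirrhosis-PTH, at 0, 0.467 and 2.19 CPM in Cirrhosis and at 0.0849, 0.599 and 0.959 CPM in Control (lowest, median and highest). Cirrhosis 4 and Cirrhosis 5 alone were above all Control libraries, at 2.18 and 2.19 CPM, and Cirrhosis 2 and Cirrhosis 3 lay at 0.106 and 0.129 CPM, so the Cirrhosis livers divided widely. Means were 0.373 ± 0.321 CPM in Cirrhosis-PTH, 0.901 ± 1.03 in Cirrhosis and 0.514 ± 0.351 in Control (SD, n = 6 each), while the Cirrhosis median lay below the Control median. Of the 30 reads in Cirrhosis-PTH, 20 came from Cirrhosis-PTH 6. Pooled rates were 0.412 CPM (0.278 to 0.588), 0.731 CPM (0.490 to 1.05) and 0.380 CPM (0.213 to 0.627).

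**Figure D2:**
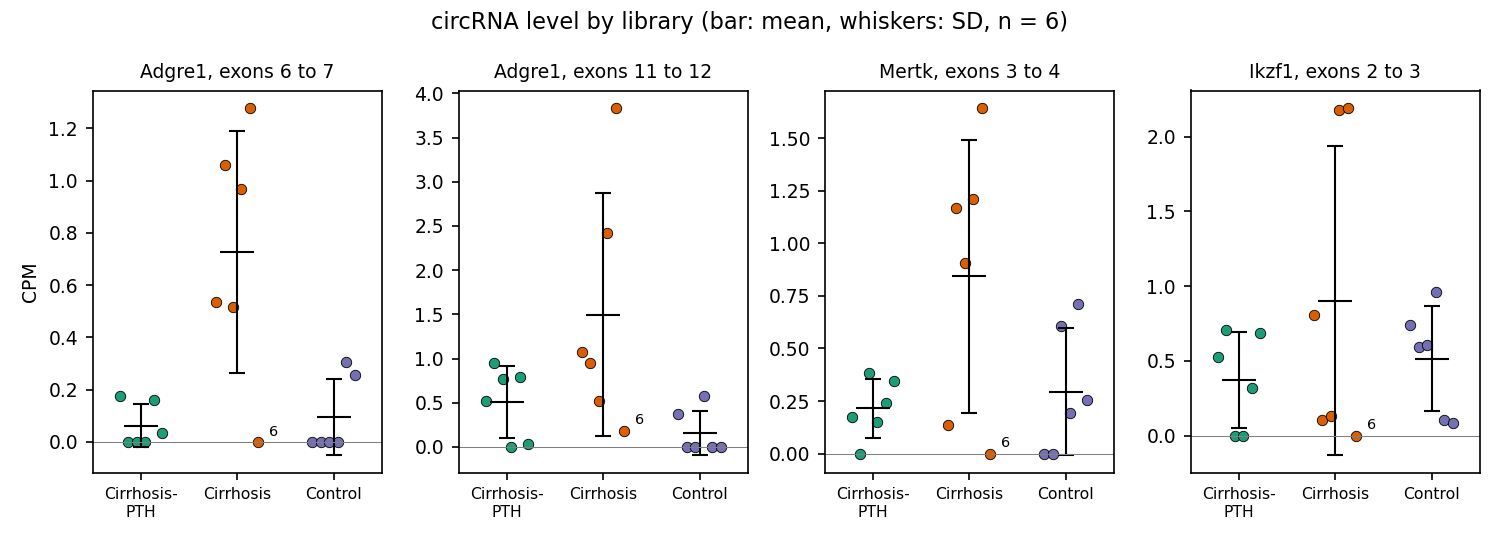
CPM of each circRNA in the 6 libraries of each group (points), with the mean (bar) and SD (whiskers); the vertical scales differ between panels, and Cirrhosis 6 is marked 6. Cirrhosis 5 is the highest and Cirrhosis 6 the lowest Cirrhosis library in all 4 panels, and the groups overlap in each.

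The 4 circRNAs shared their highest and lowest Cirrhosis libraries. Cirrhosis 5 ranked first of 6 and Cirrhosis 6 last for all 4. Added up, the members came to 1.16 ± 0.538 CPM in Cirrhosis-PTH, 3.97 ± 3.26 in Cirrhosis and 1.06 ± 0.426 in Control (SD, n = 6 each), from 77, 144 and 40 reads. The Cirrhosis sum was 8.95 CPM in Cirrhosis 5, 6.77 in Cirrhosis 4 and 0.184 in Cirrhosis 6, and between 2.07 and 3.29 in the other 3. Without Cirrhosis 6 the Cirrhosis mean was 4.72 ± 2.99 CPM (n = 5). All listed circRNAs of Cirrhosis 6 came to 409 CPM, against 207 to 435 CPM in the other Cirrhosis libraries. Only 223 circRNAs were detected in it, the fewest of the 18 libraries. The part of this in its low member values was not tested. As a share of the CPM of all listed circRNAs, the members made up 0.150% to 0.630% in Cirrhosis-PTH libraries, 0.0451% to 2.06% in Cirrhosis and 0.143% to 0.718% in Control. In a bulk tissue, fewer cells of a type and less of the RNA per cell cannot be told apart.

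**Figure D3:**
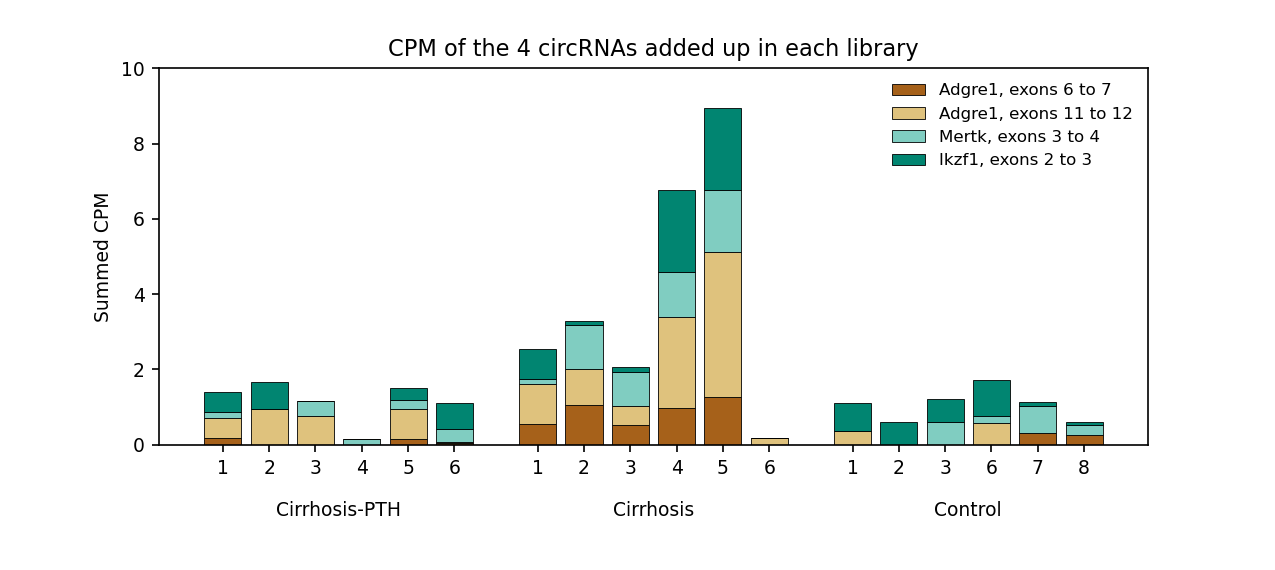
CPM of the 4 circRNAs stacked for each library, in mouse order within each group, with replicate numbers from the sample titles on the x axis. Cirrhosis 1 to 5 reach 2.07 to 8.95 CPM, Cirrhosis 6 reaches 0.184, and the highest library of the other groups is Control 6 at 1.73.

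The effect of CCl4 was read from Cirrhosis against Control. The Adgre1 circles had the largest differences of the 4. The Cirrhosis mean of the circle of exons 11 to 12 was 9.50 times the Control mean, and that of exons 6 to 7 was 7.78 times. These folds rest on 4 and 6 Control reads. The first was 20.3 without Control 6 and 6.53 without Cirrhosis 5. The second was 14.3 without Control 7, 11.9 without Control 8 and 6.48 without Control 1, 2, 3 or 6. The Mertk mean was 2.86 times the Control mean and the Ikzf1 mean 1.75 times. The Mertk fold was 2.32 without Cirrhosis 5 and 4.0 without Control 7. That of Ikzf1 was 1.25 without Cirrhosis 5, 1.26 without Cirrhosis 4 and 2.12 without Control 6. None of the 4 passed the test over all circRNAs.

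Differences were tested with limma on log2(CPM + 0.143), which understates the change of low circRNAs, and p values were adjusted over all 474. For exons 11 to 12 of Adgre1 the log2 difference was 2.37 ± 0.73 (SE; 95% interval 0.93 to 3.81; limma adjusted p = 0.119), and 6 of 6 Cirrhosis libraries lay above the Control mean. For exons 6 to 7 it was 1.78 ± 0.66 (0.49 to 3.07; limma adjusted p = 0.229), with 5 of 6 above. For Mertk it was 1.04 ± 0.73 (-0.40 to 2.47; limma adjusted p = 0.580), with 4 of 6 above. For Ikzf1 it was 0.12 ± 0.73 (-1.32 to 1.56; limma adjusted p = 0.964), with 3 of 6 above and 3 below. The Ikzf1 value was -0.46 when libraries were centred on the 26 circRNAs detected in all, which moves every circRNA alike, -0.07 when CPM was taken as a share of all listed circRNAs, and 0.45 in edgeR with TMM scaling. Its sign also turned in 5 of the 18 fits that left out 1 library, so no direction is given for it. The fits among the 18 without a Cirrhosis-PTH library could not move this difference, which stayed at 0.12 in them.

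Set against the whole table, the 4 log2 differences had a median of 1.41, and those of all 474 circRNAs a median of 0.12 with 56.1% above 0. The members were chosen with earlier results of these data known. This contrast and their places by p are therefore description only and test nothing about immune host genes. The groups did not overlap for 1 of 474 (0.211%) and for 0 of the 4. Limma called 0 of 474 (0%), with 58 at an unadjusted p under 0.05 (12.2%), of which 42 were higher in Cirrhosis (8.86%). Of the 4 members, 2 had an unadjusted p under 0.05, both higher and both from Adgre1, which share a host and are not independent. They stood in places 5 and 14 of 474 by p, and Mertk and Ikzf1 in places 127 and 427. On the recovered reads edgeR called 0 of 474, with 39 at an unadjusted p under 0.05 (8.23%), and its adjusted p was 0.181 for exons 11 to 12 and 0.561 for exons 6 to 7. DESeq2 called 1 of the 153 circRNAs to which it gave an adjusted p (0.654%), that of Ube2g2, a ubiquitin-conjugating enzyme gene named after its values were seen, with 38 of 474 at an unadjusted p under 0.05 (8.02%). Its adjusted p was 0.0961 for exons 11 to 12 of Adgre1, and it gave none for exons 6 to 7 or for Mertk. The median of all 474 moved to -0.46 under centring, where the Adgre1 differences were 1.79 and 1.20 and that of Mertk 0.46.

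Without Cirrhosis 6 the log2 differences against Control were 2.74 for exons 11 to 12 of Adgre1 (limma adjusted p = 0.109), 2.24 for exons 6 to 7 (adjusted p = 0.132), 1.50 for Mertk (adjusted p = 0.442) and 0.54 for Ikzf1 (adjusted p = 0.846). Without Cirrhosis 5, the library with the highest values, they were 2.02, 1.58, 0.77 and -0.27 in the same order.

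What PTH did in CCl4-treated mice was read from Cirrhosis-PTH against Cirrhosis. All 4 circRNAs had a lower mean in Cirrhosis-PTH. The Cirrhosis mean lay above the Cirrhosis median for exons 11 to 12 of Adgre1 (1.50 against 1.01 CPM) and for Ikzf1 (0.901 against 0.467 CPM). For exons 6 to 7 of Adgre1 and for Mertk it lay below the median. The Adgre1 circle of exons 6 to 7 had the largest difference, with a mean 0.0845 times that of Cirrhosis. This was 0.0532 without Cirrhosis-PTH 1 and 0.101 without Cirrhosis-PTH 2, 3 or 4. The means were 0.255 times the Cirrhosis mean for Mertk, 0.342 times for exons 11 to 12 of Adgre1 and 0.414 times for Ikzf1. Without Cirrhosis 5 these folds were 0.315, 0.497 and 0.580 in the same order, and without Cirrhosis 6 they were 0.213, 0.291 and 0.345. None passed the test over all circRNAs.

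The log2 difference of exons 6 to 7 of Adgre1 was -1.88 ± 0.66 (SE; 95% interval -3.17 to -0.59; limma adjusted p = 0.386). For exons 11 to 12 it was -1.26 ± 0.73 (-2.70 to 0.18; limma adjusted p = 0.634). For Mertk it was -1.11 ± 0.73 (-2.55 to 0.33; limma adjusted p = 0.646) and for Ikzf1 -0.58 ± 0.73 (-2.02 to 0.86; limma adjusted p = 0.800). Of the 36 pairings of a Cirrhosis-PTH with a Cirrhosis library, Cirrhosis-PTH was the lower in 30, 28, 25 and 22, in the order just given. It was the higher in 3, 8, 10 and 12, and the rest were tied. The pairings reuse the same libraries, and these counts were not set against those of all circRNAs.

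The median of the 4 log2 differences was -1.18, and over all 474 it was -0.17 with 58.0% below 0. Here too the contrast and the place by p are description only, since the members were chosen with earlier results known. The groups did not overlap for 2 of 474 (0.422%) and for 0 of the 4. Limma called 0 of 474 (0%), with 34 at an unadjusted p under 0.05 (7.17%), of which 26 were lower in Cirrhosis-PTH (5.49%). Of the members 1 of 4 had such a p, the circle of exons 6 to 7, in place 4 of 474. Both edgeR and DESeq2 called 1 of 474 (0.211%), that of Wac, a WW-domain adaptor gene named after its values were seen, with 30 (6.33%) and 37 (7.81%) at an unadjusted p under 0.05. Their adjusted p for exons 6 to 7 was 0.593 and 0.504. This comparison shares the Cirrhosis libraries with the one above, so a high or low Cirrhosis library moves the differences of both.

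Without Cirrhosis 6 the log2 differences of Cirrhosis-PTH against Cirrhosis were -2.34 for exons 6 to 7 (limma adjusted p = 0.199), -1.63 for exons 11 to 12 (adjusted p = 0.603), -1.57 for Mertk (adjusted p = 0.648) and -1.0 for Ikzf1 (adjusted p = 0.732). Without Cirrhosis 5 they were -1.67, -0.91, -0.84 and -0.19 in the same order, and without Cirrhosis-PTH 4, whose summed level lay far below its group, -1.79, -0.90, -1.07 and -0.28. The Ikzf1 difference thus moved by over 1.5 times with any of these 3 libraries left out. Under centring on the 26 circRNAs detected in all libraries they were -1.36, -0.74, -0.60 and -0.07 in the same order, while the median of all 474 moved to 0.34.

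Cirrhosis-PTH was also set against Control, a comparison that shares a group with each of the others. The Adgre1 circle of exons 11 to 12 had a mean 3.25 times that of Control, with a log2 difference of 1.11 ± 0.73 (SE; 95% interval -0.33 to 2.55; limma adjusted p = 0.876), and 4 of 6 Cirrhosis-PTH libraries lay above the Control mean. That fold was 6.92 without Control 6 and 2.70 without Cirrhosis-PTH 2. The others had lower means, 0.657 times that of Control for exons 6 to 7 of Adgre1, 0.730 times for Mertk and 0.726 times for Ikzf1. For exons 6 to 7 the fold was 0.414 without Cirrhosis-PTH 1, 1.20 without Control 7 and 1.0 without Control 8. The Mertk fold was 1.02 without Control 7 and 0.609 without Control 1 or 2. The log2 differences of exons 6 to 7, Mertk and Ikzf1 were -0.10 (-1.39 to 1.19), -0.07 (-1.51 to 1.36) and -0.46 (-1.90 to 0.98). Their adjusted p in limma was 0.984, 0.984 and 0.954. For the first 2 the intervals include a difference of 1 on the log2 scale to either side, so a difference of that size was not excluded. Without Cirrhosis-PTH 4 the log2 differences were 1.48 for exons 11 to 12 of Adgre1, -0.013 for exons 6 to 7, -0.036 for Mertk and -0.16 for Ikzf1. Limma called 0 of 474 (0%) in this comparison, with 25 at an unadjusted p under 0.05 (5.27%) and 0 of the 4 members among them; the groups did not overlap for 2 of 474 (0.422%) and for 0 of the 4. Both edgeR and DESeq2 called 0 as well, with 18 (3.8%) and 28 (5.91%) at an unadjusted p under 0.05.

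**Figure D4:**
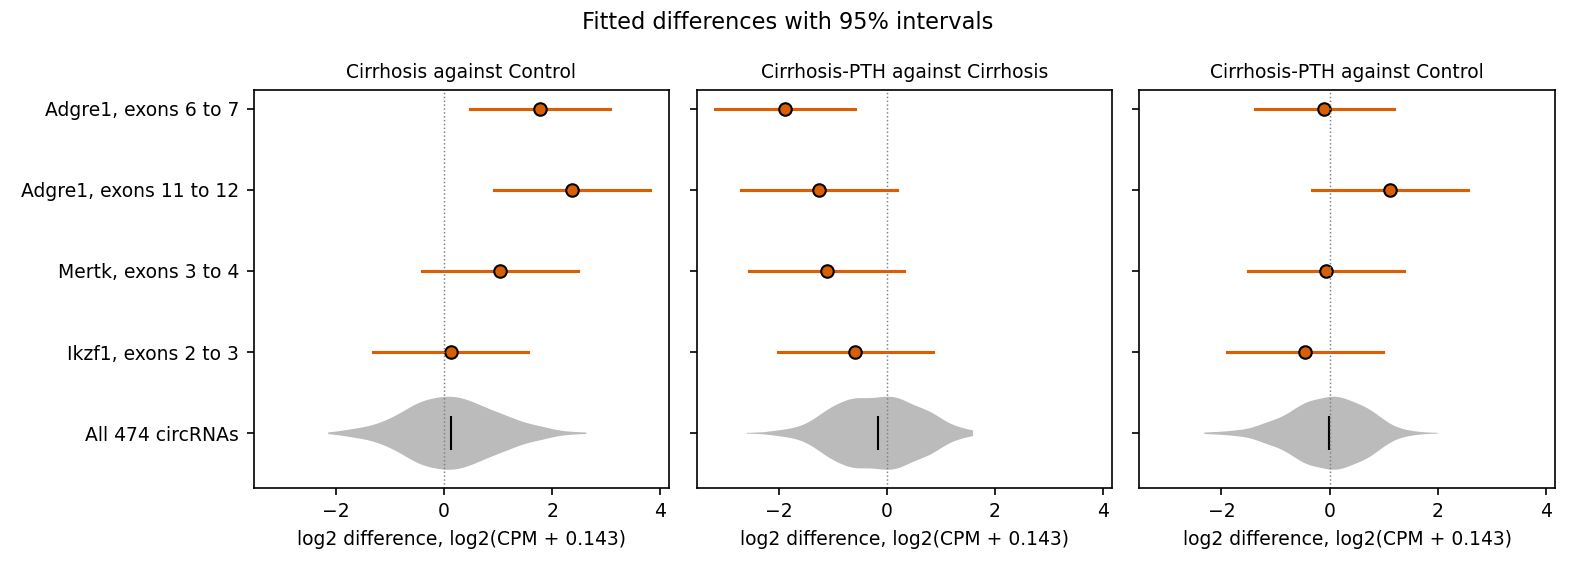
Fitted log2 differences of the 4 circRNAs (points) with 95% intervals (lines) in the 3 comparisons, on the log2(CPM + 0.143) scale; the grey shape is the distribution over all 474 circRNAs and its tick their median. The intervals of both Adgre1 circles lie above 0 for Cirrhosis against Control, and that of exons 6 to 7 lies below 0 for Cirrhosis-PTH against Cirrhosis, before adjustment over the table.

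By order of mean level, Cirrhosis came first for all 4 circRNAs. For exons 11 to 12 of Adgre1 it was followed by Cirrhosis-PTH and then Control. For Mertk and Ikzf1 it was followed by Control and then Cirrhosis-PTH. The Mertk order of these last groups turned without Control 7, where the Cirrhosis-PTH mean was 1.02 times that of Control. For Ikzf1 the pooled rates had the other order, 0.412 CPM in Cirrhosis-PTH and 0.380 in Control. Its Cirrhosis median (0.467 CPM) lay below its Control median (0.599 CPM). For exons 6 to 7 of Adgre1 the mean was lower in Cirrhosis-PTH (0.0614 CPM) than in Control (0.0934 CPM), but not without Control 7 or without Control 8, and the median was higher in Cirrhosis-PTH. None of these neighbours passed limma's test over the table.

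Genes that act with the members were then examined. Of 36 genes of the uptake of dying cells, 4 hosted 5 circRNAs. These were Mertk, the cholesterol exporter gene Abca1 with 2, the focal adhesion kinase gene Ptk2 and the Rac activator gene Dock1. In Cirrhosis against Control 5 of 5 had a positive log2 difference by CPM, where 56.1% of all 474 did, but 2 of 5 under centring, where 28.9% of all did, and 0 passed limma. The median was 0.44 by CPM beside 0.12 for all, and -0.14 under centring beside -0.46. In Cirrhosis-PTH against Cirrhosis 4 of 5 were negative by CPM, where 58.0% of all 474 were. Under centring 2 of 5 were negative and 3 of 5 positive, where 63.9% of all were positive. Medians were -0.30 beside -0.17 by CPM and 0.22 beside 0.34 under centring, and 0 passed. The 5 include Mertk itself and the pair of Abca1 circles from 1 host. Ptk2 (exons 2 to 4) stood at 0.120 ± 0.188 CPM in Cirrhosis-PTH, 0.706 ± 0.626 in Cirrhosis and 0.379 ± 0.349 in Control (SD, n = 6 each). Its log2 difference between Cirrhosis-PTH and Cirrhosis was -1.50 ± 0.72 (limma adjusted p = 0.624). Dock1 (exons 26 to 27) stood at 0.197 ± 0.232, 0.483 ± 0.943 and 0.200 ± 0.310 CPM (groups as before). The Abca1 circle of exons 6 to 7 stood at 0.503 ± 0.681, 0.511 ± 0.638 and 0.399 ± 0.360 CPM, and that of exons 3 to 5 at 0.486 ± 0.388, 0.545 ± 0.662 and 0.512 ± 0.786 CPM.

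Of 63 genes of innate immune and cytokine signalling, 4 hosted a circRNA. In Cirrhosis against Control 2 were higher and 2 lower, with a median of -0.07 (1 higher and 3 lower under centring), and 0 passed limma. Tbk1, a kinase of the interferon response, stood at 0.309 ± 0.560 CPM in Cirrhosis-PTH, 1.20 ± 1.46 in Cirrhosis and 0.320 ± 0.443 in Control (SD, n = 6 each). Nfkb1, an NF-kappaB subunit gene, stood at 0.199 ± 0.304, 0.719 ± 0.486 and 0.537 ± 0.516 CPM, groups in that order. Chuk, a kinase of the same pathway, stood at 0.113 ± 0.103, 0.126 ± 0.195 and 0.260 ± 0.208 CPM, and the ubiquitin ligase gene Itch at 0.550 ± 0.578, 0.157 ± 0.293 and 0.404 ± 0.691 CPM. Among 27 genes of the Ikaros family and its chromatin partners, Rbbp4, a histone-binding subunit gene, was the only host besides Ikzf1, at 0.0373 ± 0.0913, 0.163 ± 0.212 and 0.440 ± 0.395 CPM. Its log2 difference between Cirrhosis-PTH and Control was -1.48 ± 0.60 (limma adjusted p = 0.688). Of 26 adhesion G protein-coupled receptor genes, Adgre1 alone hosted listed circRNAs.

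Markers of other liver cells were few. Among 21 hepatocyte markers 2 hosted a circRNA. Egfr stood at 1.34 ± 0.868 CPM in Cirrhosis-PTH, 1.23 ± 0.818 in Cirrhosis and 1.52 ± 1.65 in Control, and G6pc, the glucose-6-phosphatase gene, at 0.349 ± 0.435, 0.0619 ± 0.102 and 0.366 ± 0.461 CPM (SD, n = 6 each). The log2 difference of G6pc between Cirrhosis and Control was -0.94 ± 0.64 (limma adjusted p = 0.579). Tmem56, from a list of 18 stellate cell and myofibroblast genes, stood at 1.69 ± 0.345, 3.74 ± 2.78 and 3.53 ± 1.48 CPM across these groups. The part of cell mixture in the differences of the 4 circRNAs was not tested.

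The circRNAs whose pattern was most like each member were ranked by Spearman's rho of log2(CPM + 0.143) over the 18 libraries, as a description only, since libraries share depth and low values share zeros. For exons 6 to 7 of Adgre1 the closest of other hosts were those of Soat2, a cholesterol esterifying enzyme gene (rho = 0.70), Mertk (0.69) and Mpp6 (0.67). For Mertk they were Mettl9 (0.76), Mpp6 (0.73) and exons 6 to 7 of Adgre1 (0.69). Mertk and this Adgre1 circle were thus in places 2 and 3 of each other's lists of 473 other circRNAs. The Mettl9 circle averaged 0.963 CPM in Cirrhosis-PTH, 2.44 in Cirrhosis and 1.03 in Control, and the Mpp6 circle 0.287, 0.989 and 0.182 CPM. For exons 11 to 12 of Adgre1 the closest were Rasa2, a Ras GTPase-activating protein gene (0.69), the small GTPase gene Rap1b (0.64) and the lipid kinase gene Pik3c2a (0.62), and the circle of exons 6 to 7 came in place 25 (0.52). The Rasa2 circle averaged 1.24 CPM in Cirrhosis-PTH, 2.89 in Cirrhosis and 0.623 in Control. For Ikzf1 the closest were a circRNA at chr1:139992106-139994254 with no host gene assigned (0.82), Hibadh (0.71) and a circle of Snx5 (exons 8 to 9, 0.66), and exons 11 to 12 of Adgre1 came in place 24 (0.53).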

How the data were processed

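Total RNA of 18 livers was extracted with TRIzol, depleted of ribosomal RNA and made into libraries with a NEBNext kit, per the labels' protocols, which name no digestion of linear RNA. The authors deposited CPM per circRNA and library. Back-splice junctions were called with CIRI, per the file headers. The submitters' processing notes name GRCm38 and list, without roles, Trim Galore, Bowtie2, cutadapt 4.2, HISAT2 2.2.1, Bowtie 1.3.1 and StringTie 2.1.5. The total that the authors scaled CPM to is not stated in any source used here. Each listed circRNA was above 0 in at least 9 of 18 libraries, so rarer circRNAs were not analysed here.

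Of 5886 values above 0, 100% were whole multiples of 1 read within 0.01. The test was limma 3.58.1 (R 4.3.3, trend) on log2(CPM + 0.143), the pseudocount being the smallest non-zero CPM of each library, taken at its median. All 18 libraries entered 1 model without covariates, with 2-sided p values, adjusted over 474 circRNAs by Benjamini-Hochberg and called at 0.05. The filter, above 0 in 6 or more libraries, removed 0. On the recovered reads edgeR 4.0.16 (quasi-likelihood, library sizes as recovered) and DESeq2 1.42.0 were run. All were run on simulated counts in which every circRNA was given the same spread. Their error rates on the real libraries were not tested. Exons are from GENCODE M21, numbered along 1 transcript. Groups and replicate numbers came from sample titles, and each library was taken as 1 mouse. Replicate pairs all differed by more than counting noise (chi-square per degree of freedom 2.11 to 5.85 in 45 pairs). Python 3.11.15, SciPy 1.17.1 and matplotlib 3.10.9 were used.

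The members and gene lists were chosen with earlier results of these data known. Genes named are the members, the 3 circRNAs most like each, and hosts in the lists. Other pseudocounts, filters, scalings, tests and left-out libraries were tried.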

Additional observations from a re-analysis of the deposited data

Results flagged for a closer look

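The summed CPM of the 4 circRNAs in Cirrhosis-PTH 4 was 0.149, from 2 Mertk reads, and lay far below the rest of its group. The next lowest Cirrhosis-PTH library had 1.10 CPM, and this gap was 0.631 of the group's whole range, above Dixon's critical value at 95% for 6 samples. Cirrhosis-PTH 4 also had the lowest CPM over all listed circRNAs, 99.5, with 13410656 reads behind its CPM; the part of these in the low sum was not tested. Of 15 groups of values examined 1 passed that value, where chance gives about 1 in 20.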

How the results depend on the processing

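The 12 log2 differences of the members were recomputed 378 times in all under 32 other settings. None reached an adjusted p under 0.05. DESeq2 gave no adjusted p for Mertk and exons 6 to 7 of Adgre1 in Cirrhosis against Control. Of the 378, 360 kept their sign. That count includes settings that cannot move a log2 difference, so it overstates how stable the signs were. Such settings are the fits without the filter, without the trend or with 2 groups only. Fits without a library of the group outside the comparison also belong to them. The smallest adjusted p was 0.0509, for exons 11 to 12 of Adgre1 in Cirrhosis against Control with circRNAs under a mean of 0.5 CPM left out; that filter also removes Mertk and the Adgre1 circle of exons 6 to 7, which then have no value. The 18 reversals were of differences near 0. The Ikzf1 difference of Cirrhosis against Control became -0.46 under median centring, -0.068 as a share of listed circRNAs and -1.47 with the title number as replicate block, and ran from -0.27 to 0.54 over left-out libraries. In Cirrhosis-PTH against Control, the block gave 0.37 for exons 6 to 7 of Adgre1 and 0.30 for Mertk, with ranges of -0.24 to 0.13 and -0.33 to 0.19 over left-out libraries. The block against Control keeps only the 4 shared numbers. The same libraries without pairing (a setting chosen after seeing the data) gave the same 3 values, -1.47, 0.37 and 0.30. They had to be equal, because each kept number has 1 library in both groups, so this does not test the pairing. In the libraries of the 4 shared numbers the Cirrhosis against Control difference of exons 11 to 12 of Adgre1 fell from 2.37 to 1.315 (limma adjusted p = 0.698 without pairing). That of exons 6 to 7 went from 1.78 to 1.88, and that of Mertk from 1.04 to 0.85. The deviations of same-numbered libraries from their group means had correlations of -0.057 to 0.082, with 0 pairs over 0.1. The library of the same number was the closest for 3 of 4 in Cirrhosis against Control. It was so for 1 of 6 in Cirrhosis-PTH against Cirrhosis and 0 of 4 in Cirrhosis-PTH against Control. The block called 0 circRNAs in all 3 comparisons.

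Over the table, limma's 0 calls in Cirrhosis against Control became 2 with the 0.5 CPM filter (Rock1 and Rasa2), 2 under centring (Ube2g2 and Hnrnpu), 1 in DESeq2 and 1 without the trend, and 0 to 1 over left-out libraries (1 without Control 3, Rock1). In Cirrhosis-PTH against Cirrhosis they became 1 in edgeR with or without TMM, in DESeq2 and without the trend, and 0 to 1 over left-out libraries (1 without Cirrhosis 1, 2 or 3 or Control 6), each time Wac. These names were chosen after their values were seen. The cause of these moves was not tested. Of all circRNAs, 56.1% were higher in Cirrhosis than in Control by CPM, 48.1% as a share of listed circRNAs and 28.9% under centring. For Cirrhosis-PTH against Cirrhosis these were 42.0%, 49.2% and 63.9%. Depth limits all of this: the median was 2 reads per circRNA and library.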
